A study of Mus musculus with 39 samples.

Results

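Transcription factors of the Hox, Fox, Sox, Gata, Pax, Lhx, Nkx and Tbx families were located in the nucleosome wrapping domains (NRDs) and the replication timing (RT) domains of mouse embryonic stem (ES) cells. Members were taken by name from the protein-coding genes of chromosomes 1 to 19, and 144 of 20807 genes were included. They comprised 39 Hox, 41 Fox, 17 Sox, 14 Nkx, 11 Tbx, 9 Pax, 8 Lhx and 5 Gata genes. The Hox genes lie in 4 clusters, each of which was counted as 1 locus, so that there were 109 loci. The rule uses gene names and no wrapping or timing value, but the families were picked with earlier results of these data known. All 109 loci are in mm10 coordinates, the build of both lists.

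Each of these families is defined by its DNA-binding domain: the homeodomain in Hox, Nkx and Lhx proteins, the forkhead domain in Fox proteins, the HMG box in Sox proteins, zinc fingers in Gata proteins, the paired domain in Pax proteins and the T-box in Tbx proteins. Many members specify cell fates in the embryo. In ES cells a large number of such genes are held silent by Polycomb repressive complexes at promoters rich in CG dinucleotides, while they wait for the signals of differentiation. Replication timing says when in S phase a stretch of DNA is copied, and gene-rich DNA is generally copied early.

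All samples were wild-type R1 cells, an ES cell line derived from the inner cell mass, grown with serum and leukemia inhibitory factor, and no treated group enters the lists. For H3-wrapping-seq, crosslinked chromatin was digested with MNase and nucleosomes were recovered with an antibody against histone H3 (4 libraries, 2 independent experiments). For RT, cells were labelled with BrdU and sorted by DNA content into 4 S-phase fractions (8 libraries). The authors deposited 1 list of NRDs, with 1086 on chromosomes 1 to 19, and 1 list of RT domains, with 1617 there. Each domain has 1 value. These NRDs had a median length of 1100 kb. The paper reports more NRDs, over the whole genome, with a shorter median length, and the reason for the difference is not known here. The wrapping index is a z-score, positive where longer protected fragments were more frequent relative to shorter ones than the genome-wide mean (tight domains, TiNRDs) and negative where they were less so (loose domains, LoNRDs), and the RT value is on a log2 scale, with early DNA above 0 and late DNA below. Neither list holds a value per replicate or a read number, so that the depth per domain is not known here, replicate spread cannot be given from these lists, and no difference below was tested. The timing tracks of the separate experiments were not analysed here. The value of a locus is that of the whole domain around its midpoint, and loci in 1 domain are not separate measurements: 107 loci lay in 78 NRDs, and 97 loci in 76 RT domains.

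To show what the starts of these genes look like, 150 bases before the transcription start are given for the Hox gene nearest to the centre of each Hox cluster's NRD and for the members with the lowest (Lhx9) and the highest (Foxk2) wrapping index that have a promoter entry. They were taken from RefSeq (GRCm38.p6), which held an entry for 96 of the 144 genes, run 5′ to 3′ on the gene's strand, and have each CG dinucleotide, a motif that reads the same on both strands, in capitals. The windows are at chr2:74762830-74762979 (Hoxd1, plus strand), chr6:52164832-52164981 (Hoxa2, minus strand), chr11:96365608-96365757 (Hoxb1, plus strand), chr15:103034245-103034394 (Hoxc4, plus strand), chr1:138842445-138842594 (Lhx9, minus strand) and chr11:121259837-121259986 (Foxk2, plus strand). The starts used for Lhx9 and Hoxc4 are internal ones, 6.13 and 15.46 kb from the outermost start in the gene annotation.
Hoxd1: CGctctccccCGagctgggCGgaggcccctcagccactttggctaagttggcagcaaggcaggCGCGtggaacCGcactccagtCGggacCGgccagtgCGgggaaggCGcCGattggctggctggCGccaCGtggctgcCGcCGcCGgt
Hoxa2: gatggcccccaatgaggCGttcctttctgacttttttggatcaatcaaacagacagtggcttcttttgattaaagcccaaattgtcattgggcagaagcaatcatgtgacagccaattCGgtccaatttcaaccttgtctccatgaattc
Hoxb1: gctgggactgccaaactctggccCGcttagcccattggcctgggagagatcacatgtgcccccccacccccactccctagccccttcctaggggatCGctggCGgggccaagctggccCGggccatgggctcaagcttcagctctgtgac
Hoxc4: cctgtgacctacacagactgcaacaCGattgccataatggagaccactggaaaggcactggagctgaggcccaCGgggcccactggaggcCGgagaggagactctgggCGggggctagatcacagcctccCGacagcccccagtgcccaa
Lhx9: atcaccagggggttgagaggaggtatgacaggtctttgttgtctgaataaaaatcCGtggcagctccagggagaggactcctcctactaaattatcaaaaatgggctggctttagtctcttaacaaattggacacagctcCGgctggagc
Foxk2: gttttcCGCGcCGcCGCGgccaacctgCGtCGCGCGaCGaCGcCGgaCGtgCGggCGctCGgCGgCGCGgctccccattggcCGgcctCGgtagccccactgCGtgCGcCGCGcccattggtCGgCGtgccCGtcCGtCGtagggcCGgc

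These windows held 16 CG in Hoxd1, 2 in Hoxa2, 4 in Hoxb1, 5 in Hoxc4, 2 in Lhx9 and 31 in Foxk2. Of all 32851 RefSeq promoter windows of the same 150 bases, 85.7% held at least 1 CG and the median was 4. The windows of Hoxa2, Hoxb1, Hoxc4 and Lhx9 were thus near the median, and those of Hoxd1 and Foxk2 were rich in CG. A wider count was made for all genes in the 1 kb around the annotated start. The 144 members had a median of 56.5 CG there, against 42 for the 20661 other protein-coding genes, and 87 of 144 members (60.4%) had at least 50 CG, against 44.1% of the other genes. Sox and Fox genes had the most, with medians of 75 and 76. The Hox genes had a median of 52, with a range from 10 at Hoxb2 to 126 at Hoxa13.

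Most loci were in tightly wrapped domains. Of the 107 loci with an NRD, 98 were in TiNRDs (91.6%) and 9 in LoNRDs, while 79.4% of the other protein-coding genes with an NRD were in TiNRDs. Most were also early: 85 of the 97 loci with an RT domain (87.6%) were in early and 12 in late domains, against 77.8% early among the other genes. The number of loci without any RT domain was 12 of 109 (11.0%), against 3.23% of the other genes. With those lacking an RT domain counted, 85 of 109 loci (78.0%) and 15551 of 20661 other genes were early, so these shares lay closer together. No NRD was found for 2 loci (background 1.08% of genes), and these had no RT domain either (background 0.092%).

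Of the 97 loci with both calls, 83 (85.6%) were TiNRD and early, against 72.4% of the other genes. TiNRD and late loci numbered 9 (9.28%, background 7.83%). There were 2 LoNRD and early loci (2.06%, background 5.59%) and 3 LoNRD and late loci (3.09%, background 14.2%). Among loci with both calls, the shortfall against the other genes was therefore in both loosely wrapped classes. However, only 5 of the 9 LoNRD loci had an RT domain, against 3921 of 4219 other LoNRD genes, and the rest entered neither class. The share of tight and late loci was close to the background. That class is small and sensitive to the domain borders: it held 5 loci with domains of at least 500 kb and 2 with loci at least 200 kb from a domain end. The background depends on what it holds. Without olfactory, vomeronasal and other receptor genes, zinc finger genes, defensins and predicted genes, which lie in large arrays, 84.6% of 16929 other genes were in TiNRDs, and the loci stood above that by less. The early share of the other genes was then 83.7%.

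**Figure D1:**
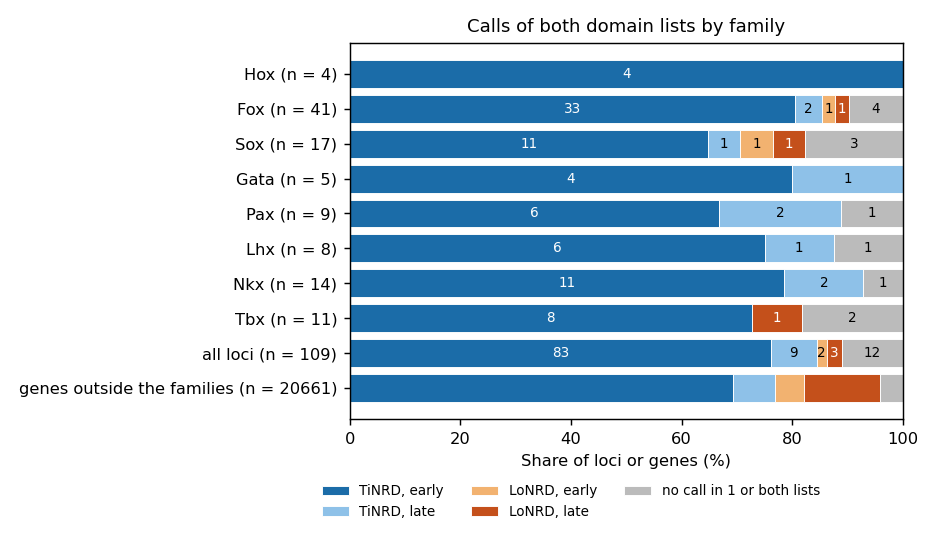
Calls of both lists by family, as the share of loci (horizontal axis, %) in each of 4 joint classes, with numbers of loci printed in the bars and grey for loci with no call in 1 or both lists. The lowest bar gives the other protein-coding genes. The 4 Hox loci were all TiNRD and early, and 4 LoNRD loci without an RT domain are in the grey parts of Fox, Lhx and Tbx.

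The higher share of TiNRDs did not go with a higher median index. The median wrapping index was 0.68 for the 107 loci, with quartiles of 0.44 and 1.06, and 0.76 for the other genes, with quartiles of 0.29 and 1.05. Among TiNRDs alone the loci had a median index of 0.78 and the other genes 0.87. An index above 0 and under 0.5 was found at 20 of 107 loci (18.7%), against 12.0% of the other genes, and an index of at least 1 at 40 of 107 (37.4%), against 30.0%. Among TiNRDs alone these shares were 20.4% against 15.1% and 40.8% against 37.9%. For RT the loci were likewise lower, with a median of 0.89 for the loci and 0.98 for the other genes, and of 1.05 and 1.16 among early domains alone.

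Families differed in their medians, which rest on few domains. Median wrapping indices were, in descending order, 0.80 for Tbx, 0.77 for Fox, 0.75 for Hox, 0.70 for Lhx, 0.68 for both Sox and Gata, 0.58 for Pax and 0.52 for Nkx. The range within each family was far wider than the distance between the medians, and the families overlapped throughout. Median RT values were 1.26 for Tbx, 1.22 for Hox, 1.19 for Lhx, 0.96 for Fox, 0.91 for Sox, 0.81 for Gata and 0.54 for both Pax and Nkx. Pax and Nkx were lowest in both lists and share 3 NRDs, so that their values are partly the same. All 9 Pax loci and all 13 Nkx loci with an NRD were in TiNRDs, against 79.4% of the other genes. The Nkx loci lay in only 9 NRDs.

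**Figure D2:**
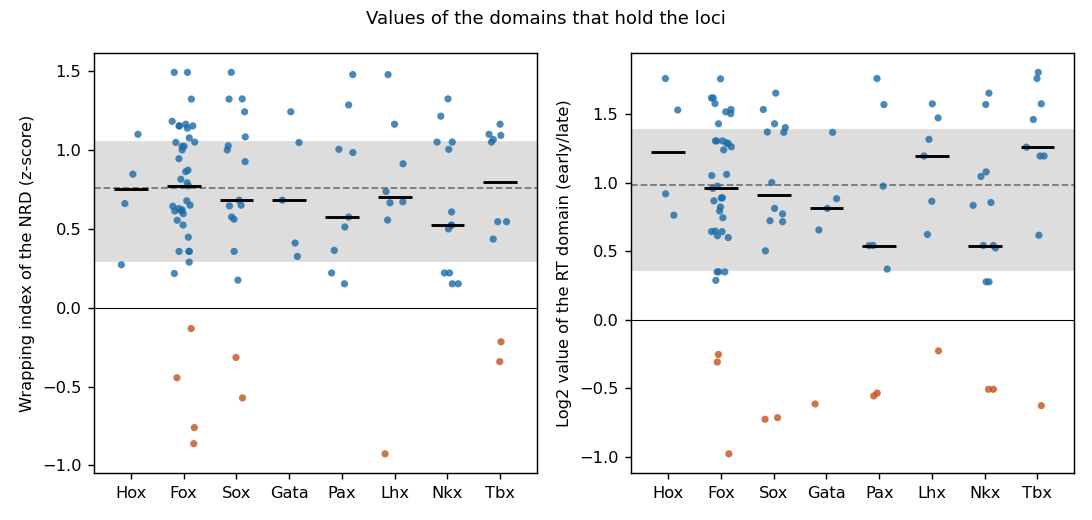
Wrapping index of the NRD (left, z-score) and log2 value of the RT domain (right) for each locus by family, with a point per locus in blue above 0 and orange below, and a black line at the family's median. The grey band and dashed line give the quartiles and the median of the other protein-coding genes; medians of Pax and Nkx are the lowest in both panels, and all families overlap.

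The 4 Hox clusters, which set positional identity along the body axis, each lay within 1 TiNRD and 1 early RT domain, with no border inside a cluster. HoxB (chr11:96194316-96368256, 10 genes) had the highest values, with a wrapping index of 1.10 and an RT value of 1.76. The latter was at the 98.5 percentile of the other protein-coding genes with an RT domain. HoxC (chr15:102921103-103036852, 9 genes) had an index of 0.85 and an RT value of 1.53. HoxA (chr6:52155590-52260880, 11 genes) followed with 0.66 and 0.92. HoxD (chr2:74668310-74765142, 9 genes) was lowest in both, with 0.27 and 0.76, at the 24.5 and 36.4 percentiles. The order of the clusters was thus the same in both lists.

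The clusters also differed in their surroundings. HoxB lay at least 2694 kb inside its NRD of 11200 kb and at least 2594 kb inside its RT domain. The surrounding 1 Mb held 13 other genes at HoxB, 20 at HoxC, 5 at HoxA and 4 at HoxD. HoxD began only 168 kb inside an NRD of 3400 kb, and its early RT domain of 550 kb had late neighbours on both sides, with values of −0.28 and −0.29. HoxC ended 563 kb before a short LoNRD with an index of −0.07. HoxA lay 3439 kb or more from the ends of its NRD of 8200 kb, and its RT domain reached 639 kb past the cluster. In base composition the clusters were alike, with A/T contents of 50.5, 50.8, 50.2 and 50.7% in the 100 kb around the middle of HoxB, HoxC, HoxA and HoxD, against a median of 55.5% around other genes. The NRD of HoxD was richer in A/T, with 57.9%, than those of HoxA (55.8%), HoxC (54.4%) and HoxB (52.9%), which is the reverse order of their wrapping indices. A/T content thus moved with the index here, and its part in the index was not tested.

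**Figure D3:**
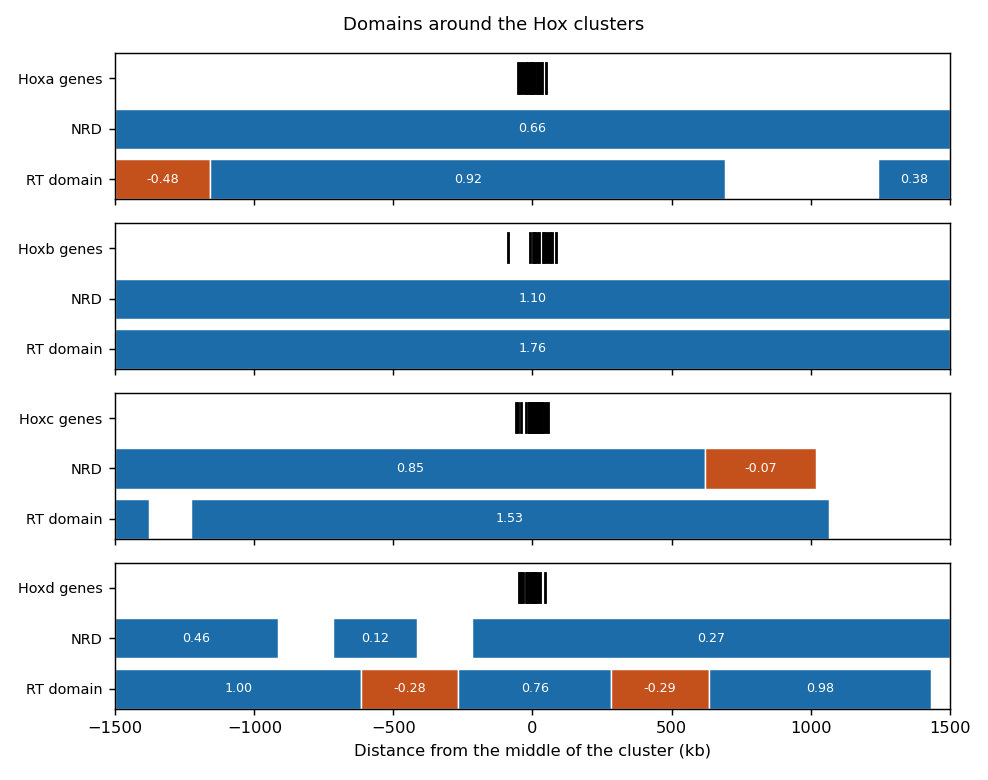
Position of the Hox genes (black), NRDs and RT domains around the middle of each cluster (horizontal axis, kb), with blue for positive and orange for negative values and the value printed in wider domains. White stretches have no domain in the list or, right of HoxC, lie past the chromosome end; HoxD sits in the shortest early RT domain, between late ones, and HoxB in domains that fill the window.

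Fox loci were in TiNRDs at 37 of 41 (90.2%), against 79.4% of the other genes. Of the 37 with both calls, 33 (89.2%) were TiNRD and early, against 72.4%. The highest wrapping index of any member, 1.49, was that of the chromosome 11 NRD shared by Foxj1, the master gene of motile cilia, Foxk2, a broadly expressed factor, and Sox9 of cartilage and testis. The highest RT value in the family was 1.76 at Foxa3, a liver factor. LoNRDs held 4 Fox loci, among them Foxp2, a brain gene tied to speech in humans (−0.76), Foxa1, which opens chromatin in endoderm (−0.44), and Foxb2 (−0.13). Foxp2 had the lowest RT value of all members, −0.98, and lies over 541 kb of A/T-rich DNA, at 64.0% in the 100 kb around its midpoint. Its paralogues Foxp1 and Foxp4 were TiNRD and early, with indices of 0.79 and 1.14.

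Paralogues within some Fox letters were placed differently. Of the 13 letters with at least 2 members, 5 had members with different calls when a missing call is counted as a class of its own, and 3 when members called in both lists alone are compared. Loci that are not paralogues had different calls as well, so that these counts are a description only. Foxa2 and Foxa1 had no RT domain while Foxa3 was TiNRD and early. Foxi3 was TiNRD and early with an RT value of 1.06, whereas Foxi1 of the inner ear and Foxi2 were TiNRD and late, with −0.25 and −0.31. Foxb1 was TiNRD and early and Foxb2 LoNRD and early. The Foxn, Foxo, Foxj and Foxk genes, which include the insulin-regulated Foxo factors and Foxn1 of the thymus, were TiNRD and early throughout.

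Sox loci were in TiNRDs at 15 of 17 (88.2%), against 79.4% of the other genes and 84.6% without arrayed families. The exceptions were Sox17 of definitive endoderm, with a wrapping index of −0.57, and Sox6 of cartilage and muscle, with −0.32. Members of all 5 Sox subgroups with 3 members here differed in their calls when a missing call counted as a class, and in 3 of the 5 they differed among members called in both lists. Sox17 was LoNRD and early (RT value 0.72) while its partners in blood vessels, Sox7 and Sox18, were TiNRD and early. Sox14 of inhibitory neurons was TiNRD and late (−0.71), unlike Sox1 and Sox21. Sox9 and Sox11 had no RT domain, unlike Sox8 and Sox10 and unlike Sox4 and Sox12, their respective relatives. The 3 relatives Sox5, Sox6 and Sox13 had 3 different outcomes: a TiNRD with no RT domain, LoNRD and late, and TiNRD and early. At its annotated start Sox6 was TiNRD and early like Sox13, so that the difference between them rests on the midpoint. The highest Sox values with an RT call were at Sox8, with an index of 1.32 and an RT value of 1.65.

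Of the 5 Gata loci, all were in TiNRDs, against 79.4% of the other genes. Gata5 had the highest values (1.24 and 1.37) and Gata6 the lowest (0.33 and −0.61). Gata6, a driver of primitive endoderm, was late, and its relatives Gata4 and Gata5 early. Gata2 and Gata3, the blood factors, were early with RT values of 0.88 and 0.65. Among Pax loci, Pax8 of the thyroid had the highest index (1.48) and Pax7 of muscle satellite cells the highest RT value (1.76). Pax1 of the vertebral column had the lowest index (0.15) and Pax9 of teeth and pharyngeal pouches the lowest RT value (−0.56). Pax8 and Pax9 were the late Pax loci by midpoint, though not by start site, each with early relatives: Pax2 of the kidney and Pax5 of B cells for the former, Pax1 for the latter. Pax4 of pancreatic β-cells had no RT domain, while Pax6 of the eye was early.

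Lhx loci were in TiNRDs at 7 of 8 (87.5%), against 79.4% of the other genes. Lhx3, a pituitary and motor neuron factor, had the highest Lhx index (1.48) and Lhx5 the highest RT value (1.57). Lhx9 of the gonad had the lowest index of all 109 loci, −0.93, in a LoNRD of 13800 kb, while its relative Lhx2 was TiNRD and early (0.74 and 0.86). Lhx8 was late (−0.23) and Lhx6, its partner in forebrain neurons, early (1.47). For the Nkx family, Nkx2-5, the heart factor, was highest in both lists (1.32 and 1.65). Nkx2-2 and Nkx2-4 shared the lowest index (0.15). Nkx2-6 of the pharynx and heart had the lowest RT value (−0.51). The Nkx1 and Nkx6 genes were TiNRD and early in every case.

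Tbx loci were in TiNRDs at 8 of 10 (80.0%), about the same as the 79.4% of the other genes. Tbx10 had the highest RT value of all members, 1.80, which no protein-coding gene exceeded. Tbx5, the forelimb and heart factor, had the highest Tbx index (1.16). LoNRDs held Tbx20 of the heart (−0.34) and Tbx18 of the epicardium and sinus node (−0.22), and Tbx18 was also the lowest in RT (−0.63). Tbx15, the relative of Tbx18, had neither an NRD nor an RT domain. Over all paralogue subgroups outside Hox and Fox with at least 2 members, 14 of 22 held different calls with missing ones counted, and 8 with members called in both lists alone, and here too no share for unrelated genes was computed. At the annotated start, Sox6, Pax8 and Pax9 were TiNRD and early, like their relatives called in both lists. Both counts thus rest partly on the use of the midpoint.

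**Figure D4:**
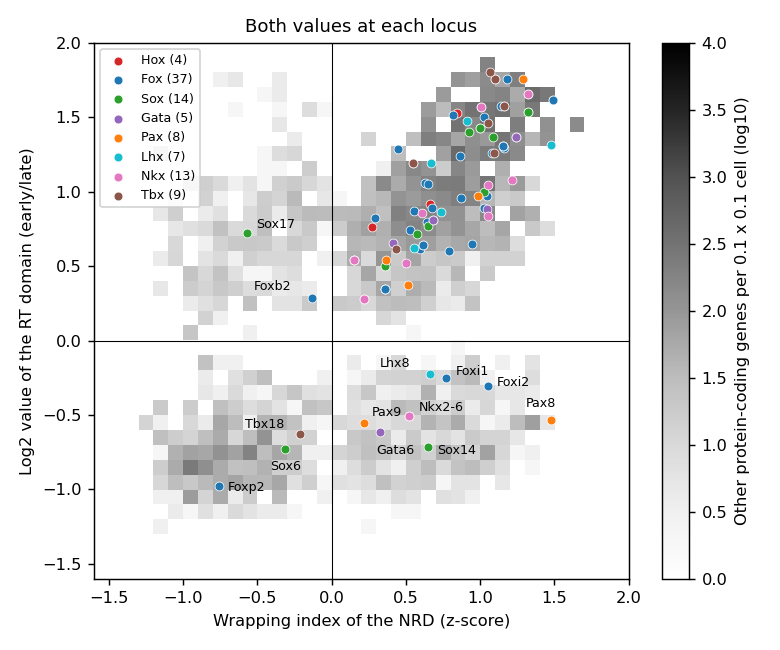
Wrapping index of the NRD (horizontal axis, z-score) against the log2 value of the RT domain (vertical axis) for the 97 loci with both, coloured by family (numbers in the key), over the number of other protein-coding genes in each cell (grey, log10; a few such genes beyond the left edge are not drawn). Most loci are in the upper right; the 9 TiNRD and late loci are in the lower right, and Sox17 and Foxb2 in the upper left.

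Across the 97 loci the 2 values rose together, with Pearson's r = 0.66 and Spearman's rho = 0.76, and across 19789 other genes with r = 0.71 and rho = 0.72. These are descriptions, since loci share domains, and base composition and gene number vary with both values.

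The 9 TiNRD and late loci included Foxi1, Foxi2, Sox14, Gata6, Pax8, Pax9, Lhx8 and Nkx2-6. Their late values were mild: the median was −0.51, the lowest −0.71 and the highest −0.23, while TiNRD and late genes outside the families had a median of −0.62. They lay close to the ends of their RT domains, 7 of 9 within 200 kb (77.8%), against 54.6% of the other genes of this class and 21.8% of all other genes. The RT domains were short as well, with a median of 700 kb, and 5 of 9 loci (55.6%) were in RT domains of at most 1 Mb, against 45.4% of the other TiNRD and late genes and 20.3% of all other genes. For example, Sox14 shared its NRD (index 0.65) with Foxl2 of the ovary, which was early (1.05), and its late RT domain of 500 kb began where that of Foxl2 ended. The exceptions were Foxi1, 306 kb from the nearest end of its RT domain, and Foxi2, 662 kb from it and in the middle of a TiNRD of 20700 kb.

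Pax8 and Pax9 were called late by the midpoint and by most of the gene body, but not by the start. An RT border crossed Pax8, with 46.5% of the gene in an early domain (1.31) and 53.5% in a late one (−0.53). Pax9 was divided as well, 39.1% early (0.28) and 60.9% late. The annotated start of both genes was on the early side. The only other locus whose call changed at the start site was Sox6, where the midpoint was LoNRD and late and the start was in a TiNRD (0.53) and an early domain (0.90). Sox6 spans 568 kb and 3 NRDs, with indices of 0.26, −0.32 and 0.53. Counted from the start site, TiNRD and late loci would be 7, and LoNRD and late loci 2.

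The 2 LoNRD and early loci differed in kind. Sox17 lay 1494 kb inside the first LoNRD of chromosome 1, of 6500 kb, and 44.1 kb inside an early RT domain of 850 kb. Foxb2 lay in a LoNRD of 400 kb, 26.9 kb from its end, between TiNRDs of 0.35 and 0.29. With domains under 500 kb left out, Sox17 alone would stay in the class.

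No RT domain covered the midpoint of 12 loci, of which 4 were in LoNRDs (among them Foxa1, Lhx9 and Tbx20), 6 in TiNRDs (Foxa2, Foxd4, Sox5, Sox9, Sox11, Pax4) and 2 in no NRD (Nkx3-2, Tbx15). The gaps were 50 to 600 kb long. Late domains flanked the gap on both sides at 7 loci, early ones at Foxd4, and a late and an early one at Sox5, Sox9, Pax4 and Lhx9. At most 5 other protein-coding genes were found in the surrounding 1 Mb at 10 of the 12 loci, against 26.2% of the 667 other genes with no RT domain, 14.0% of all other genes and 34.9% of all loci. Sox11, a factor of developing neurons, stood farthest apart, with 854 kb to the nearest other gene, as the single gene of a TiNRD of 800 kb (index 0.17) and in an RT gap of 200 kb between late domains (−0.71 and −1.09). Sox9 was 457 kb from the nearest other gene, in an RT gap of 400 kb between −0.96 and 0.75. Sox5, the longest member at 954 kb, had 55.8% of its length in a gap and 44.2% in a late domain. Nkx3-2 of the axial skeleton was in an NRD gap between LoNRDs (−0.84 and −0.52), and Tbx15 likewise (−0.16 and −0.29).

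The loci stood in DNA with few genes but low A/T content. The median number of other protein-coding genes in the surrounding 1 Mb was 9 for the loci and 16 for genes outside the families. At most 5 such genes were found around 38 of 109 loci (34.9%), against 14.0% of the other genes. The share was 28.6% among TiNRD loci and 9.10% among TiNRD genes outside the families, and 8 of 9 LoNRD loci against 32.4% of LoNRD genes outside them. In the 100 kb around the midpoint, A/T content had a median of 53.4% for the loci and 55.5% for the other genes. TiNRD loci had 53.0% against 54.1%, and LoNRD loci 58.8% against 60.8%. Gene number and A/T content go with wrapping and timing over the genome, and their part in the calls of these loci was not tested.

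**Figure D5:**
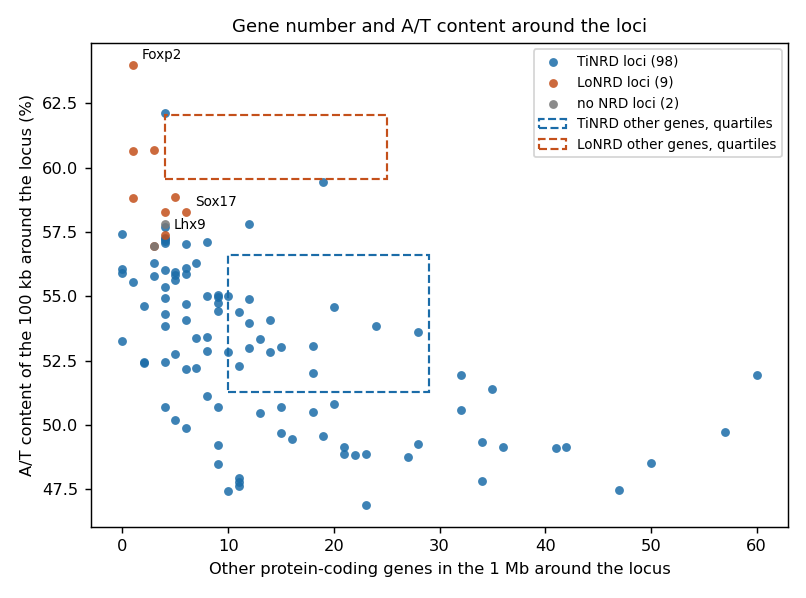
Number of other protein-coding genes in the 1 Mb around each locus (horizontal axis) and A/T content of the 100 kb around it (vertical axis, %), with TiNRD loci in blue, LoNRD loci in orange and loci without an NRD in grey. Dashed boxes give the quartiles of the other TiNRD and LoNRD genes; the 9 LoNRD loci have 1 to 6 neighbours, and many TiNRD loci lie to the left of the TiNRD box.

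CG dinucleotides at gene starts differed less between the domain kinds among the members than among the other genes. The 9 members in LoNRDs had a median of 51 CG in 1 kb around the start, with the highest number, 79, at Foxp2, and the 133 members in TiNRDs a median of 61. Other LoNRD genes had a median of 10 and other TiNRD genes 49. At least 50 CG were present in 5 of the 9 LoNRD members and in 23.8% of the other LoNRD genes. The 12 late members had a median of 45 and the other late genes 9. In all CG counts, here and above, the other genes include the arrayed families, and CG was not counted without them.

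Several loci were in short tight domains. NRDs of at most 1 Mb held 23 of 107 loci (21.5%), against 12.2% of the other genes. Of the TiNRD loci 20 of 98 (20.4%) were in such short NRDs, against 9.30% of the other TiNRD genes. There were 14 short TiNRDs with members, and 9 of them had a LoNRD on both sides, adjoining in each case: those of Pax3, Gata3, Lhx2, Pax6, Foxj2, Sox11, Gata6, Nkx2-6 and the trio Pax9, Nkx2-1 and Nkx2-9. Of the 252 short TiNRDs without members, 192 (76.2%) had a LoNRD on both sides as well, so that this setting was not particular to the members. The TiNRD of Pax6 (chr2:105000001-105700000) had an index of 0.51 between LoNRDs of −0.12 and −0.39. The TiNRD of Lhx2 (chr2:38300001-39000000) had an index of 0.74 next to a LoNRD of 10400 kb with −1.04. The shortest was that of Nkx2-6, at 300 kb, with an index of 0.52 between −0.46 and −0.20, and a late RT domain covered the gene.

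Members of different families shared some domains. There were 20 NRDs with at least 2 loci, which held 49 of the 107 loci, and in 15 of them, with 38 loci, 2 or more families met. The NRDs of the loci were long, with a median of 4700 kb, and sharing by other genes was not computed. The largest groups had 4 loci. On chromosome 7 a TiNRD of 20700 kb and 343 genes (index 1.05) held Foxi2, Nkx1-2, Nkx6-2 and Tbx6 of paraxial mesoderm. On chromosome 13 a TiNRD of 3300 kb with 15 genes (index 0.36) held the neighbours Foxq1, Foxf2 and Foxc1 together with Sox4. In the latter, Sox4 stood alone in an early RT domain of 850 kb (0.50), and the Fox trio in another one of 500 kb (0.35).

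Among groups of 3, Foxf1, Foxc2 and Foxl1 on chromosome 8 (index 1.15) were of 1 family. Groups of 3 with 2 or more families included Foxn4, Lhx5 and Tbx5 on chromosome 5 (1.16). Foxj1, Foxk2 and Sox9 shared an NRD on chromosome 11 (1.49). The others were Pax1, Nkx2-2 and Nkx2-4 on chromosome 2 (0.15) and Pax9, Nkx2-1 and Nkx2-9 on chromosome 12 (0.22). The last 2 groups are alike: a Pax gene of the same subgroup beside a pair of Nkx2 genes. Their TiNRDs of 500 and 400 kb held 4 and 3 genes in all, these loci included. Nkx2-1 of the thyroid and lung and Nkx2-9 were early (0.28), with Pax9 across the border. On chromosome 2, Foxa2, a factor of endoderm and floor plate, was in the next TiNRD (0.22), and on chromosome 12, Foxa1 was in the next LoNRD (−0.44). Pairs of 2 families were Pax8 with Lhx3 (1.48), Foxs1 with Sox12 (1.00), Sox18 with Gata5 (1.24) and Foxl2 with Sox14 (0.65). Other such pairs were HoxB with Tbx21 of T cells (1.10), Sox7 with Gata4 (0.68) and Foxh1 with Sox10 of the neural crest (1.32). The remaining ones were Sox8 with Nkx2-5 (1.32) and Pax2 with Nkx2-3 (1.00).

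Genes whose products act with these factors were looked up as lists. Polycomb genes, which encode the complexes that silence developmental genes, were in TiNRDs at 24 of 25 and early at 24 of 25, with Mtf2 in a LoNRD (−0.15) and Pcgf5 late (−0.86). Cbx2 and Cbx8 lay in the same TiNRD as Foxj1, Foxk2 and Sox9. Trithorax and cohesin genes, which keep genes active and fold chromatin, were in TiNRDs at 10 of 12 and early at 13 of 13. Hox cofactors of the Pbx, Meis and Pknox families were in TiNRDs at 6 of 8 and early at 7 of 8, with Meis1 and Meis2 in LoNRDs (−0.49 and −0.62). The LIM cofactors, here the Ldb and Lmo genes, were in TiNRDs at 4 of 6 and early at only 2 of 5 (40.0%). Ldb1 (1.00, RT value 1.57) and Ldb2 (−0.32, −0.96) were opposite in both lists. The GATA cofactors were opposite too, Zfpm1 TiNRD and early (1.15) and Zfpm2 LoNRD and late (RT value −0.73). Groucho corepressors were in TiNRDs at 3 of 5 and early at 4 of 5. The backgrounds for these counts are the same 79.4 and 77.8% as above, or 84.6 and 83.7% without arrayed families.

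A list of 48 other developmental transcription factors (Dlx, Irx, Msx, Emx, Otx, En, Evx, Hand, Zic, Barhl, Pitx, Cdx and others) was counted in the same way. Of these genes 41 of 48 (85.4%) were in TiNRDs, against 79.4% of the genes outside the families and 84.6% without arrayed families. Early genes were 35 of 41 (85.4%), against 77.8% and 83.7%. No RT domain was found for 7 of 48 (14.6%), against 3.23%. Their median wrapping index was 0.65 and their median RT value 0.88. Evx1 and Evx2, homeobox genes next to HoxA and HoxD, shared the domains of those clusters. Dlx1 and Dlx2 were TiNRD and early (0.46 and 1.00), while Dlx5 and Dlx6, a pair of the same kind, were in a LoNRD (−0.27) with no RT domain.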

How the data were processed

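H3-wrapping-seq and RT libraries of R1 cells were analysed through 2 domain lists. According to the methods and the labels, the authors trimmed reads with cutadapt 4.3, aligned them to mm10 with Bowtie2 2.5.1 and marked duplicates with Picard before dropping them with SAMtools. For NRDs, the authors compared fragments longer and shorter than a break point in 100 kb bins, took a z-score, smoothed it and called domains with homer2. The deposited value of an NRD is this score. For RT domains, the authors scaled fraction counts in 50 kb windows, divided the early by the late ones, took log2, quantile-normalized the ratio and called domains likewise. The deposited value is on a log2 scale. Smoothing limits how closely a border is placed. How a domain's value was made from its bins, and whether both RT experiments entered it, is not given in the sources used here.

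Protein-coding genes of GENCODE vM21 were assigned by midpoint, and Hox clusters by the middle of the cluster. Genes outside the families were the background. All domains lay inside the GRCm38 chromosomes, and the last RT domain ended at the chromosome end on 18 of 19. Named loci were the Hox clusters, the highest and lowest locus of each family in each list, loci whose calls differ between the lists or are missing, paralogues with different calls and families sharing an NRD. Members, lists and this rule were chosen with earlier results of these data known. No test was run, since the lists hold no replicate values. Assignment was tested on simulated domains. Python 3.11.15 and numpy 2.4.6 were used. Alternatives were the start site, most of the gene body, single genes, joined neighbours within 500 kb, domains of at least 500 kb, each domain once, a distance of 200 kb from domain ends, other denominators and a background without arrayed families. Of the lists, Rbbp7, Stag2 and Tle5 were not found among the genes of chromosomes 1 to 19 under these names. Some genes with names of these families are not reported here, and the other libraries of the study and the timing tracks per experiment were not analysed here.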

Additional observations from a re-analysis of the deposited data

How the results depend on the processing

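Of 62 values computed under alternatives for 11 results, 52 kept within 1.5 times the count or within the counting interval of the share. The share of loci in TiNRDs ranged from 88.5 to 95.1%. TiNRD and late loci fell from 9 to 5 with domains of at least 500 kb and to 2 with loci at least 200 kb from a domain end, and LoNRD and early loci from 2 to 1 and to 0. The share of early loci was 94.5% at that distance and 78.0% with all 109 loci in the denominator. On the latter basis 15551 of 20661 other genes were early. Other genes were in TiNRDs at 84.6% and early at 83.7% without arrayed families, and at 54.3% and 49.3% with each domain counted once. One alternative, domains with an absolute value of at least 0.5, was chosen after seeing the data and left 95.1% of loci in TiNRDs and 89.7% early. No paired analysis was possible because each list used is 1 call without values per replicate, and timing tracks per experiment were not analysed here. Depth per domain is unknown, and a border can be no finer than the bins, 100 kb wide in the NRD list and 50 kb wide in the RT list.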
